A study of Mus musculus with 6 samples.

Results

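Wnt ligands, their receptors and their secreted antagonists were examined in infarcted mouse myocardium. Members were the rows of the deposited table whose symbol begins with Wnt, Fzd, Sfrp or Dkk followed by a digit, together with Frzb, Wif1, Lrp5, Lrp6, Ror1, Ror2, Rspo1, Rspo3, Ctnnb1, Lef1, Tcf7 and Axin2. The rule found 36 of the 16199 genes in the table: 10 Wnt ligands, 9 Frizzled receptors, 4 co-receptors, 4 antagonists of the Sfrp type (Frzb included), 3 of the Dkk and Wif1 type, 2 R-spondins, and Ctnnb1 with Lef1, Tcf7 and Axin2. All 6 libraries came from the myocardium of mice whose left anterior descending coronary branch had been ligated 7 days earlier, 3 of them taken from wild types and 3 given the label ITIH5 knockdown (the labelled knockdown group). The study asked whether ITIH5 acts on scarring after infarction through the immune response. How the knockdown was made, and in which cells, is not given in the sources used here, and no uninjured or sham-operated heart is among the samples, so nothing below shows what infarction itself did. Separate animals are not stated for the replicates, so the p-values reflect how far these 6 libraries scatter, and that scatter may be technical.

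Wnt proteins are lipid-modified signals that bind Frizzled receptors on the cell surface. With the co-receptors Lrp5 or Lrp6 they stabilise beta-catenin, which then works with Tcf/Lef factors in the nucleus, and with Ror receptors they act on cell shape and polarity without beta-catenin. Sfrp proteins, Frzb and Wif1 bind Wnt proteins outside the cell, Dkk1 and Dkk2 bind Lrp5 and Lrp6, and R-spondins keep Frizzled receptors at the surface. The adult heart is known for low Wnt activity that is restarted after injury, largely in fibroblasts, endothelium and the epicardium.

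Each gene has a value per library on a scale named as TPM, which by name is a share of transcripts corrected for gene length. Whether gene length was corrected for is not established here, so comparisons between levels of different genes assume it. Small values come in whole steps of 0.889 to 1.163, depending on the library, so a gene at a few steps is known only coarsely; read depth is unknown. Of the 36 members, 29 reached a mean value of 1 and were tested among 14025 genes. The targeted gene, Itih5, did not have a lower mean in the labelled knockdown group: it was at 9.73, 13.1 and 17.2 in wild-type replicates 1, 2 and 3, and at 18.4, 10.5 and 19.96 in labelled knockdown replicates 1, 2 and 3 (a log2 difference of 0.26, exact two-sided permutation p = 0.5, 0.1 being the lowest p possible with 3 libraries a side). Directions below therefore follow the labels, and values are given in that order throughout. Heart muscle markers summed to 6163 to 7589 in the wild-type group and to 19980, 10639 and 6374 in the labelled knockdown group, and no marker was at 0. Fibroblast markers summed to 18390 to 21533 versus 13060, 20409 and 17740, and macrophage markers to 8188 to 10911 versus 3827, 7639 and 6515. Of the 8 fibroblast markers, 5 had lower and 3 higher means in the labelled knockdown group. In bulk tissue, fewer cells of a type and less of an RNA per cell cannot be told apart.

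Frizzled receptors accounted for 4 of the 7 members with an unadjusted p under 0.05, in both directions. Fzd2 was lower and Fzd6 higher in the labelled knockdown group, Fzd1 and Fzd5 were lower on average, and the ligands Wnt11 (higher), Wnt4 and Wnt2 (both lower) had unadjusted p-values under 0.05 as well. With limma, none of the 29 members had an adjusted p under 0.05 (Benjamini-Hochberg, over all genes tested), and neither did any other gene (0 of 14025, 0%). At an unadjusted limma p under 0.05 there were 7 members of 29 (24.1%), beside 14.8% of all genes tested. Of these 5 were lower, beside 6.55% of all genes, and 2 higher, beside 8.29%. Lower means were found for 22 of the 29, beside 49.2% of all genes, and the median log2 difference (labelled knockdown group relative to wild type) was -0.16 beside 0.00461 over all genes tested. With the heart muscle marker score as a covariate the members' median was -0.024, beside 0.00505 over all genes. Without labelled knockdown replicate 1 it was -0.067, and without labelled knockdown replicate 2 it was -0.28. The groups did not overlap for 4 members (13.8%), beside 22.4% of all genes tested. Fzd2 and Lrp5 were lower without overlap, beside 9.88% of all genes, and Fzd6 and Wnt11 higher, beside 12.6%. The count of 7 members was 3 without wild-type replicate 2, 3 without wild-type replicate 3 and 3 without labelled knockdown replicate 1. The shares over all genes in these 3 fits were 15.1%, 7.42% and 10.5%. The member count was 5, 7 and 8 without wild-type replicate 1, labelled knockdown replicate 2 and labelled knockdown replicate 3. Beside these stood 7.12%, 16.8% and 18.3% of all genes.

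**Figure D1:**
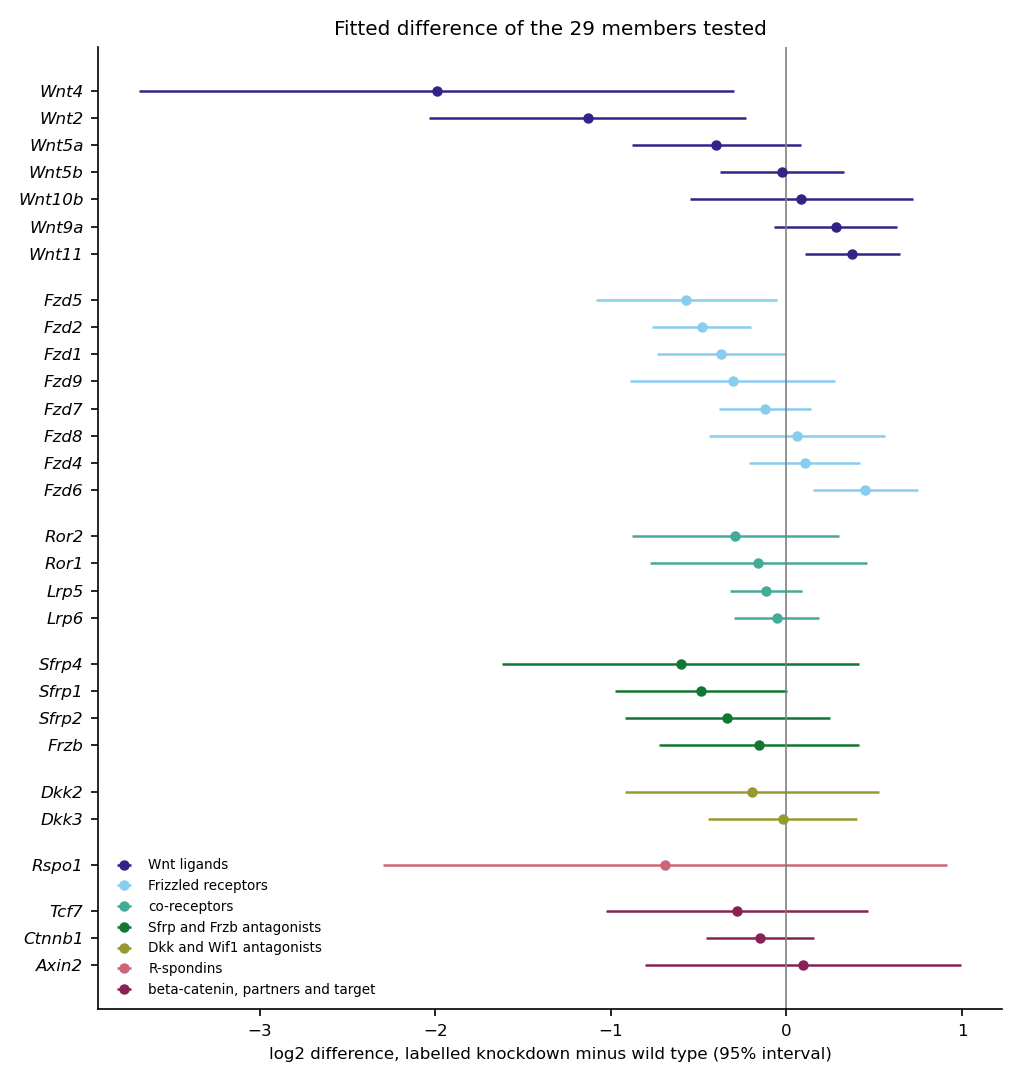
Estimated difference on the log2 scale (labelled knockdown group minus wild-type group) of the 29 members tested, grouped by role; points are limma estimates and lines are 95% intervals. The intervals of 7 members lie to one side of 0: Wnt4, Wnt2, Fzd5, Fzd2 and Fzd1 below it, Wnt11 and Fzd6 above it.

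Scaling bears on these counts. Dividing each library by its step, which returns nearly all low values to whole numbers, moved the median log2 difference of all genes to -0.14, and rescaling each library to a sum of 1000000 moved it to -0.13. The members' median was -0.31 on the step scale and -0.30 after rescaling, so relative to all genes it lay about as far below as in the deposited values. On the step scale 5 members had an unadjusted p under 0.05 (Wnt4, Wnt2, Fzd2, Fzd1 and Fzd5), beside 13.5% of all genes, and neither Wnt11 nor Fzd6 was among them. Differences of receptors relative to one another, which no scaling of whole libraries can alter, are therefore given beside the levels.

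Fzd2, which encodes a Frizzled receptor of fibroblasts and other mesenchymal cells, was at 40.1, 34.8 and 38.1 in the wild-type group and at 23.6, 30.8 and 25.9 in the labelled knockdown group. Every library labelled knockdown was below every wild-type library. The group means were 37.7 ± 2.68 and 26.8 ± 3.70 (SD, n = 3 each), a ratio of 0.711. The fitted log2 difference was -0.48 (SE 0.12, 95% interval -0.77 to -0.20, limma unadjusted p = 0.00493, adjusted p = 0.296). In whole steps the values were 41.2, 37.3 and 42.9 versus 20.3, 32.1 and 26, again without overlap. The unadjusted p stayed under 0.05 in each of the 17 alternatives run, and the log2 difference was -0.40 without labelled knockdown replicate 1, the library with the lowest fibroblast marker sum. In mm10 the protein-coding gene Fzd2 occupies chromosome 11, 102604396 to 102608058, plus strand.

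Fzd6, whose product acts in planar polarity and can oppose beta-catenin signalling, had a higher mean in the labelled knockdown group. It was at 17.6, 17.8 and 20.6 in the wild-type group and at 28.8, 27.0 and 22.0 in the labelled knockdown group. The groups did not overlap, though wild-type replicate 3 and labelled knockdown replicate 3 were little more than 1 step apart. The means were 18.6 ± 1.69 and 25.9 ± 3.56 (SD, n = 3 each). The log2 difference was 0.45 (SE 0.13, 95% interval 0.15 to 0.75, limma unadjusted p = 0.00932, adjusted p = 0.296). In whole steps the groups overlapped, at 18.0, 19.1 and 23.2 versus 24.8, 28.1 and 22.0, and the log2 difference was 0.30 (limma unadjusted p = 0.0753). Fzd6 maps to the plus strand of chromosome 15, from 39006034 to 39038188.

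Fzd1 and Fzd5 were lower on average but overlapped between the groups. Fzd1, a Frizzled receptor close in sequence to Fzd2 and Fzd7, was at 27.3, 29.1 and 36.3 versus 20.1, 27.9 and 23.0 (a log2 difference of -0.37, SE 0.15, limma unadjusted p = 0.0452, adjusted p = 0.331). Labelled knockdown replicate 2 exceeded wild-type replicate 1, and the other libraries labelled knockdown were below all wild-type libraries. Fzd5, a receptor that can bind Wnt5a, was at 13.7, 11.3 and 11.8 versus 6.04, 11.6 and 6.98 (a log2 difference of -0.57, SE 0.22, limma unadjusted p = 0.0343, adjusted p = 0.315). Here labelled knockdown replicates 1 and 3 were low and replicate 2 was at the wild-type level. With the heart muscle marker score as a covariate the unadjusted limma p was 0.167 for Fzd1 and 0.118 for Fzd5, versus 0.0225 for Fzd2 and 0.0444 for Fzd6. Under that covariate 3 members (Fzd2, Fzd6 and Wnt11) had an unadjusted p under 0.05, beside 7.88% of all genes.

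The other Frizzled genes overlapped between the groups. Fzd4, the endothelial receptor for norrin as well as Wnt, was at 25.96 to 36.8 over the 6 libraries (a log2 difference of 0.10, 95% interval -0.21 to 0.42) and was highest in labelled knockdown replicate 1. In that library the endothelial markers also had their highest sum, 1271, against 547 to 897 in the other 5; the part of endothelial content in this was not tested. Fzd7 was at 15.2 to 19.9 (a log2 difference of -0.12, 95% interval -0.39 to 0.14) and Fzd8 at 13.0 to 22.2 (0.06, -0.44 to 0.56). Fzd9 was at 1 or 2 steps in every library. Fzd3 was at 1 step in all 6, so its deposited values differ only as the steps do.

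As a share of the summed Frizzled value within a library, Fzd2 made up 24.9%, 21.2% and 22.4% in the wild-type group and 15.8%, 18.6% and 18.6% in the labelled knockdown group. Fzd6 made up 10.9%, 10.8% and 12.1% versus 19.3%, 16.3% and 15.7%. Fzd1 also took a lower share without overlap, at 17.0%, 17.7% and 21.4% versus 13.5%, 16.9% and 16.4%. The ratio of Fzd2 to Fzd6 was 2.28, 1.96 and 1.85 in the wild-type group and 0.817, 1.14 and 1.18 in the labelled knockdown group, a mean log2 difference of -0.97. This ratio was chosen because these genes did not overlap in opposite directions, so its separation follows from that choice and is given as a description, with no test. It does not depend on the scaling of whole libraries, and it does not say which of the receptors differed. The summed Frizzled value itself overlapped between the groups, at 161, 164 and 169.8 versus 149, 166 and 139.7.

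**Figure D2:**
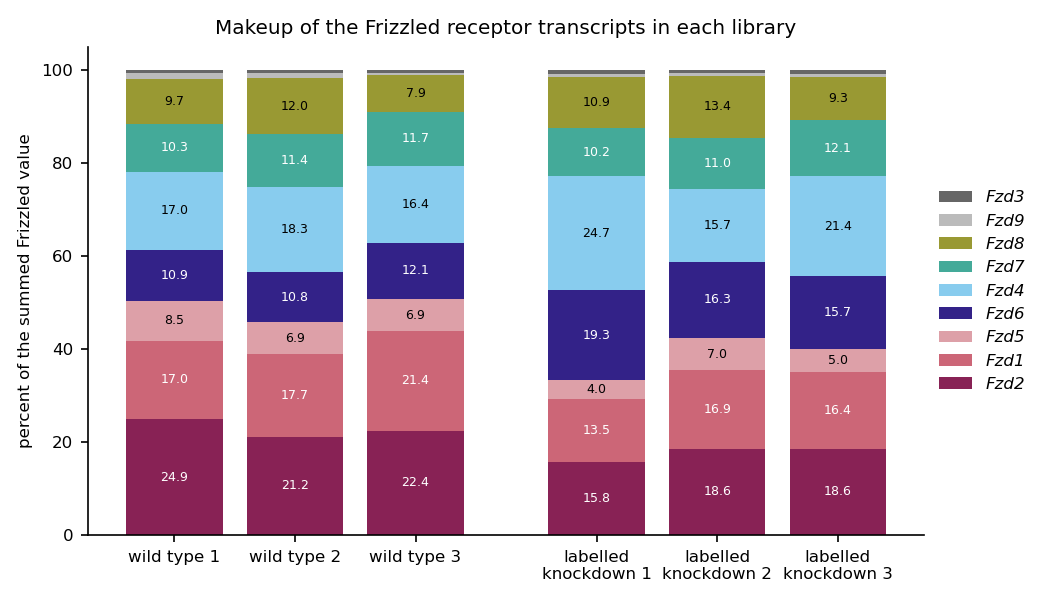
Makeup of the Frizzled transcripts in each library, each bar adding up to 100% of the summed deposited value of the 9 Frizzled genes; numbers are percent. The Fzd2 segment is larger in the 3 wild-type libraries (21.2% to 24.9%) than in the 3 libraries labelled knockdown (15.8% to 18.6%), and the Fzd6 segment is smaller.

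No RefSeq promoter entry was used for Fzd2 or Fzd6. For the members matched in the RefSeq table of build GRCm38.p6 (25 of 36, with 33 start sites), the 250 bases before each start were searched for CTTTGAT, a core of the site that Tcf/Lef factors bind, on both strands (ATCAAAG on the other). It was present before 2 of the 33 member starts (6.06%), 1 of Wnt11 and 1 of Wnt5b, beside 3.21% of the 32851 windows of that length in the table. Windows are shown for Wnt11, the ligand that was higher without overlap, for Fzd1, a Frizzled gene with a lower mean whose window holds no annotated exon, and for Axin2, the usual readout of beta-catenin activity; they are printed 5′ to 3′ on the strand of the gene, with the motif in capitals.
Wnt11, plus strand, chr7:98834862-98835111: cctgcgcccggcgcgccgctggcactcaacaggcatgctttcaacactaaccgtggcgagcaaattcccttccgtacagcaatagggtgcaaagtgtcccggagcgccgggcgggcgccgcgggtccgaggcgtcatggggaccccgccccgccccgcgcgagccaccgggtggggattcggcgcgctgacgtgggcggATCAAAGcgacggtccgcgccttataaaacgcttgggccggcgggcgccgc
Fzd1, minus strand, chr5:4758217-4758466: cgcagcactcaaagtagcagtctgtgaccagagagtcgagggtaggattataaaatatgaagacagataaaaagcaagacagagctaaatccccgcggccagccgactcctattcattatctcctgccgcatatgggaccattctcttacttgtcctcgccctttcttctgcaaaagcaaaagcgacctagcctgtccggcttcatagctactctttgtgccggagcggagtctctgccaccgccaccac
Axin2, plus strand, chr11:108920099-108920348: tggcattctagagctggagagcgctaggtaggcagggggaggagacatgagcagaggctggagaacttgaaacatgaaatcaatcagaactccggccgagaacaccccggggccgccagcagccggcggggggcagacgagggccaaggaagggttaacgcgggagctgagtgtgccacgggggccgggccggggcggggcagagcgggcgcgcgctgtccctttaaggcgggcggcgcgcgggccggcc
The match before Wnt11 ends 45 bases ahead of the start. A further Wnt11 window, chr7:98838595-98838844, is not shown and holds no match. The letters were not found in the windows of Fzd1 and Axin2, which says nothing of other sites or of binding.

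Wnt11 had the highest ligand mean over all 6 libraries pooled, at 8.71, though in the wild-type group Wnt4 had a mean of 10.4 and Wnt11 one of 7.46. It encodes a Wnt that acts mostly without beta-catenin and guides heart muscle development. Wnt11 was at 6.82, 7.48 and 8.07 in the wild-type group and at 9.28, 9.64 and 11.0 in the labelled knockdown group (a log2 difference of 0.37, SE 0.12, 95% interval 0.10 to 0.65, limma unadjusted p = 0.0137, adjusted p = 0.297). The groups did not overlap, the gap being about 1 step. In whole steps it was at 7.00, 8.02 and 9.08 versus 7.98, 10.0 and 11.0, which overlap, and its log2 difference on that scale was 0.24 (limma unadjusted p = 0.177). As a share of the summed ligand value it was higher without overlap, at 21.2%, 19.4% and 17.0% versus 34.3%, 34.6% and 25.6%, a sum that includes the low Wnt4 values given next. The share of Wnt9a was higher without overlap too, at 21.2%, 17.0% and 13.2% versus 29.8%, 24.2% and 23.3%, and that of Wnt2 lower. Wnt11 maps to the plus strand of chromosome 7, from 98835112 to 98855195.

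Wnt4, a ligand of epithelial and mesothelial layers that also takes part in fibrosis of other organs, had the lowest log2 difference of the 29 members. It was at 5.84, 11.4 and 14.0 in the wild-type group and at 0.173, 0.908 and 7.98 in the labelled knockdown group. Labelled knockdown replicates 1 and 2 were near 0, and replicate 3 lay above wild-type replicate 1. The means were 10.4 ± 4.15 and 3.02 ± 4.31 (SD, n = 3 each), and the log2 difference was -1.99 (SE 0.72, 95% interval -3.69 to -0.30, limma unadjusted p = 0.0272, adjusted p = 0.308). Its unadjusted limma p was 0.0735, 0.0883, 0.0833 and 0.0826 without wild-type replicate 2, wild-type replicate 3, labelled knockdown replicate 1 and labelled knockdown replicate 2. Without labelled knockdown replicate 3 its log2 difference was -2.85, and with the heart muscle marker score as a covariate it was -0.90. Wnt4 maps to the plus strand of chromosome 4, from 137277489 to 137299726.

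The R-spondin gene Rspo1 was low in the same labelled knockdown replicates as Wnt4, 1 and 2, and so was the ligand Wnt2, at few steps. Rspo1 was at 7.78, 9.35 and 6.45 versus 1.31, 2.87 and 17.0, with labelled knockdown replicates 1 and 2 below and replicate 3 above every wild-type library (a log2 difference of -0.69, SE 0.68, limma adjusted p = 0.614). Wnt2, a ligand of developing heart and lung, was at 0.974, 1.90 and 2.80 versus 0.0351, 0 and 0.998, or 1 to 3 steps against 0 or 1 step (a log2 difference of -1.13, SE 0.38, limma unadjusted p = 0.0209, adjusted p = 0.3004). Rspo3, which endothelium and mesenchyme secrete, was not tested because of its low mean and was at 1.96, 0.925 and 1.86 versus 0.0235, 0 and 0.998. Wnt16 was at 0 in wild-type replicate 1 as well, with values of 0, 0.939 and 1.86 versus 0.0235, 0 and 0.998. Wnt2 spans about 3 steps, and Rspo3 and Wnt16 about 2, so all 3 rest on very few steps.

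Among markers of epicardium and mesothelium, the layers covering the heart, 5 of 8 were markedly low in the same libraries. Their 8 genes summed to 143, 159.6 and 169.7 in the wild-type group and to 71.0, 66.9 and 233 in the labelled knockdown group. All 8 had lower means, none at an unadjusted limma p under 0.05, and none was at 0 in any library. Msln, the mesothelin gene, was at 27.3, 46.2 and 18.4 versus 2.70, 8.64 and 50.9, and Upk3b, another mesothelial gene, at 14.6, 21.6 and 18.5 versus 0.257, 4.76 and 40.9. Krt19, Lrrn4 and Upk1b were also lowest in labelled knockdown replicates 1 and 2. Tbx18 was lowest there too, by a smaller margin, while Wt1 and Aldh1a2 did not follow these libraries closely. Wt1 was at 10.7, 12.2 and 17.3 versus 13.8, 5.69 and 18.0, Aldh1a2 at 45.0, 27.0 and 47.2 versus 39.3, 23.0 and 47.9, and Tbx18 at 17.6, 14.0 and 19.1 versus 12.9, 12.5 and 16.0. Adipocyte markers summed to 482, 1368 and 699 versus 4.78, 11.7 and 1443, with Plin1, Cidec and Lep listed at 0 in at least 1 library. B cell markers summed to 801, 673 and 1326 versus 61.1, 67.4 and 523, without overlap; all 6 had lower means, 2 of them at an unadjusted limma p under 0.05, and Pax5 was listed at 0 in at least 1 library. The part that mesothelial tissue, fat or B cells in a sample have in the Wnt4, Rspo1 and Wnt2 values was not tested.

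**Figure D3:**
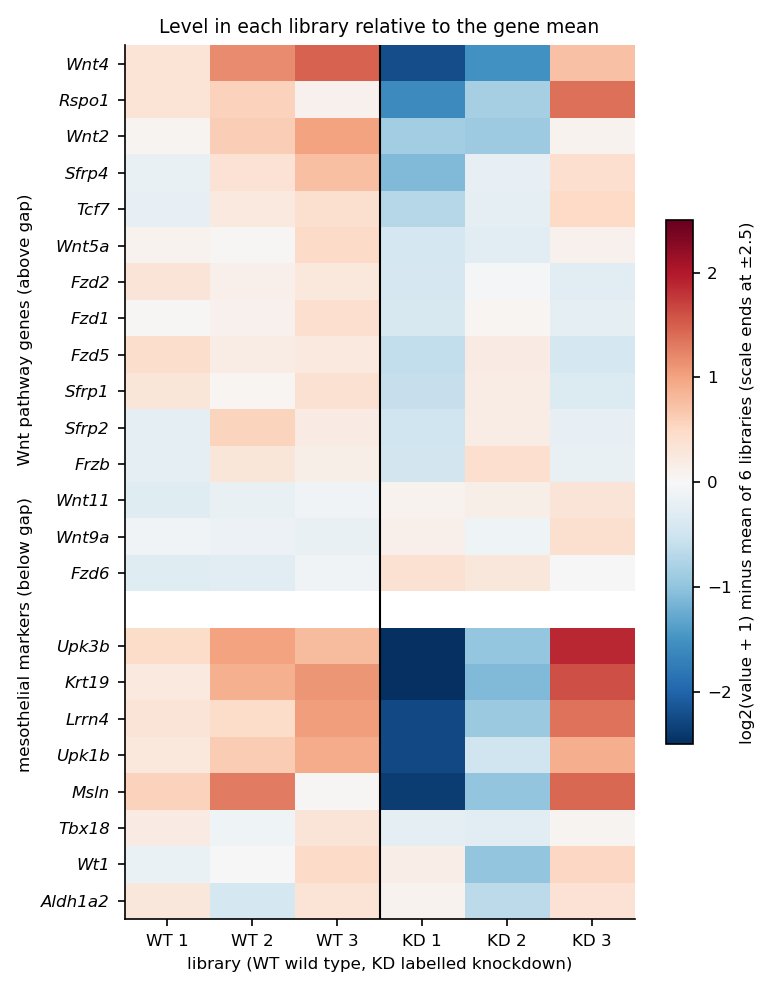
Level of 15 members (above the gap) and 8 epicardial and mesothelial markers (below it) in each library, as log2(value + 1) minus the mean over the 6 libraries; red is above and blue below the mean of that gene. Wnt4 and Rspo1 share the low labelled knockdown replicates 1 and 2 of Upk3b, Krt19, Lrrn4, Upk1b and Msln. Labelled knockdown replicate 3 is above the gene mean for all of these, but for Wnt4 it is below wild-type replicates 2 and 3. Fzd2, by contrast, is lowest in labelled knockdown replicates 1 and 3.

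The remaining ligands showed smaller differences. Wnt9a was at 6.83, 6.54 and 6.28 versus 8.06, 6.74 and 9.98 (a log2 difference of 0.28, SE 0.15, limma unadjusted p = 0.0996). In whole steps it stood at 7 in 5 libraries and at 10 in labelled knockdown replicate 3. Wnt5a, the main ligand of Ror receptors, was at 3.91, 3.75 and 5.49 versus 2.41, 2.87 and 3.99 (a log2 difference of -0.40, SE 0.20, limma unadjusted p = 0.0914), with labelled knockdown replicate 3 between the wild-type values. Wnt5b, closely related to Wnt5a, was at 4.69 to 6.34 over the 6 libraries and had a log2 difference of -0.03 (95% interval -0.38 to 0.33). Wnt10b was at 0.925 to 2.00, and Wnt2b and Wnt6, both under the mean of 1 and not tested, stood near 0 or at 1 step in each library.

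**Figure D4:**
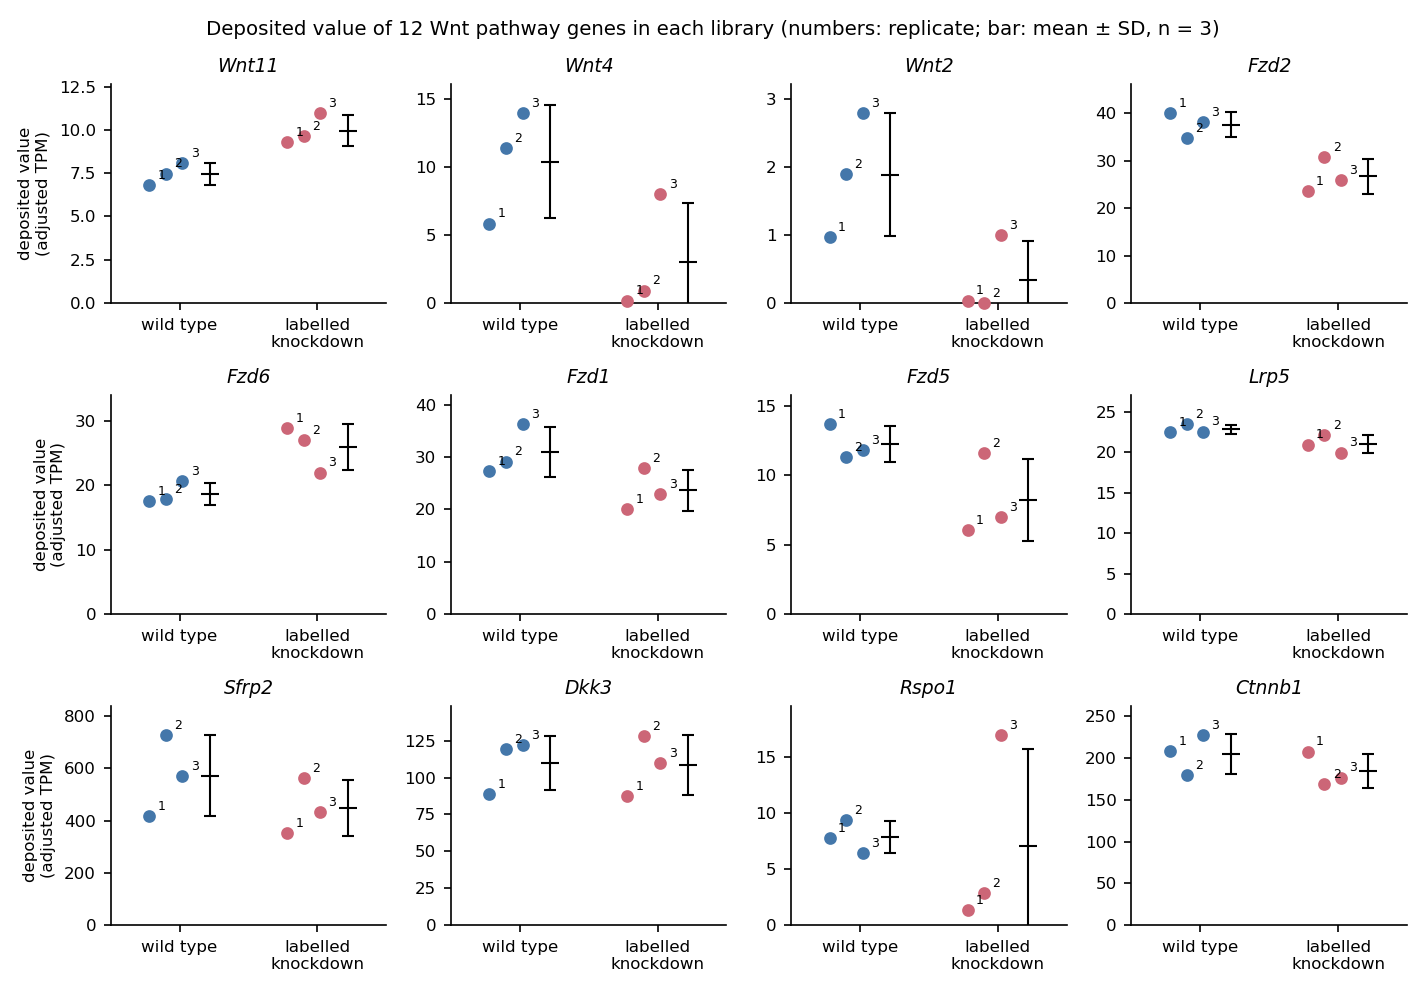
Deposited value (adjusted TPM, linear axis from 0) of 12 members in each library, with the replicate number beside each point and the mean ± SD (n = 3) beside each group; error bars that reach below 0 are cut at the axis. Fzd2 and Lrp5 are lower, and Fzd6 and Wnt11 higher, in all 3 libraries labelled knockdown than in all 3 wild-type libraries, while the other 8 genes overlap.

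Co-receptor levels were close between the groups. Lrp5 was at 22.5, 23.5 and 22.6 in the wild-type group and at 20.96, 22.2 and 19.96 in the labelled knockdown group. The groups did not overlap, but the gap between wild-type replicate 1 and labelled knockdown replicate 2 was under 1 step and in whole steps these libraries overlapped. The log2 difference was -0.12 (95% interval -0.32 to 0.09, limma unadjusted p = 0.221). Lrp6, its partner in beta-catenin signalling, was at 20.5, 20.7 and 23.5 versus 20.97, 22.2 and 19.0 (a log2 difference of -0.06, 95% interval -0.30 to 0.19). Ror1 and Ror2, the tyrosine kinase-like receptors of Wnt5a, were at 4.86 to 11.6 and 3.66 to 9.15 over the 6 libraries, with log2 differences of -0.16 (SE 0.26) and -0.29 (SE 0.25). Ror1 and Ror2 were both lowest in labelled knockdown replicate 1, and Lrp5 and Lrp6 in replicate 3 of that group.

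Secreted antagonists had far higher deposited values than ligands. The 7 antagonist genes summed to 1107, 1434 and 1366 in the wild-type group and to 806, 1337 and 979.97 in the labelled knockdown group, and the 10 ligand genes to 32.2, 38.5 and 47.5 versus 27.0, 27.9 and 42.9. The ratio of the sums was 34.4, 37.2 and 28.7 versus 29.8, 48.0 and 22.8, overlapping between the groups. Sfrp2, an antagonist secreted by activated cardiac fibroblasts, was at 416, 727 and 570.5 versus 352, 564 and 432 (a log2 difference of -0.34, SE 0.25, 95% interval -0.92 to 0.25, limma unadjusted p = 0.216). Sfrp1 was at 468, 395 and 496 versus 254, 435 and 299 (a log2 difference of -0.49, SE 0.21, 95% interval -0.98 to 0.00197, limma unadjusted p = 0.0507, adjusted p = 0.339). Labelled knockdown replicates 1 and 3 were below every wild-type library for Sfrp1, and replicate 2 lay within the wild-type range, as it did for Fzd5. Without labelled knockdown replicate 2 the log2 difference of Sfrp1 was -0.71, and without replicate 1 it was -0.32.

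Frzb, also called Sfrp3, was at 129, 186 and 168 versus 109, 202 and 133 (a log2 difference of -0.15, SE 0.24). Its share of the summed Sfrp and Frzb value was higher without overlap, at 12.7%, 14.2% and 13.6% versus 15.2%, 16.8% and 15.3%, beside overlapping shares of Sfrp1 and Sfrp2. That sum is mostly Sfrp1 and Sfrp2, whose means were lower in the labelled knockdown group, and the level of Frzb itself overlapped. Sfrp4 was at 0 to 3 steps in every library (a log2 difference of -0.60, SE 0.43). Dkk3, a Dkk relative that does not act on Lrp5 and Lrp6 as Dkk1 does, was at 88.8, 119 and 122 versus 87.6, 128 and 109.8 (a log2 difference of -0.02, 95% interval -0.44 to 0.40). Dkk2 was at 2.5 to 6.76 over the 6 libraries (a log2 difference of -0.20, SE 0.31), and Wif1 was listed at 0 or stood at 1 step. The fibroblast marker sum was lowest in labelled knockdown replicate 1, where Sfrp1, Sfrp2, Frzb and Dkk3 each had their lowest value. The 8 markers did not move together. Dcn, Tcf21 and Postn were at 784, 76.8 and 3219 in that library, each within the wild-type range, while the other 5 were at their lowest there. The part of fibroblast content in these levels was not tested.

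Ctnnb1, the beta-catenin gene, was at 208, 179 and 228 in the wild-type group and at 208, 168 and 177 in the labelled knockdown group (a log2 difference of -0.15, 95% interval -0.46 to 0.16, limma unadjusted p = 0.282). The groups overlapped in the deposited values. In whole steps, at 214, 192 and 256 versus 178.5, 176 and 177, they did not, beside 25.3% of all genes without overlap on that scale. Axin2, the feedback target most often read as a measure of beta-catenin signalling, was at 0.967, 0.913 and 2.75 versus 1.205, 0.949 and 2.99, which is 1, 1 and 3 steps in each group (a log2 difference of 0.09, 95% interval -0.81 to 0.99). At this level a difference in Axin2 was not detectable. Tcf7, a Tcf/Lef factor that T cells also express, was at 3.89, 5.64 and 6.41 versus 2.45, 3.84 and 6.99 (a log2 difference of -0.28, SE 0.32), and T cell markers summed to 55.5, 65.6 and 66.5 versus 31.5, 54.0 and 78.8, in the same order of libraries within the labelled knockdown group; the part of T cells was not tested. Lef1 was at 0 or 1 step in all libraries.

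The wider pathway was read from lists of 77 further genes, 64 of them in the table and 59 tested. None passed after adjustment with limma, and 6 of 59 (10.2%) had an unadjusted p under 0.05, 3 lower and 3 higher, beside 14.8% of all genes. Their median log2 difference was 0.01. Of 14 tested genes of the dishevelled proteins and the destruction complex, which degrades beta-catenin, 4 were among the 6. Axin1, the scaffold of that complex, was at 23.5, 22.6 and 23.6 versus 17.5, 18.3 and 19.96 (a log2 difference of -0.31, SE 0.09, limma unadjusted p = 0.0108, adjusted p = 0.296), and Csnk1d at 78.2, 74.2 and 81.4 versus 62.9, 68.4 and 66.9 (-0.24, SE 0.09, limma unadjusted p = 0.0287). Dvl1, a dishevelled gene that relays the Frizzled signal, was at 23.4, 29.1 and 21.4 versus 34.5, 30.8 and 33.9 (0.42, SE 0.13, limma unadjusted p = 0.0128), and the kinase gene Csnk1e at 42.0, 44.1 and 35.8 versus 53.1, 47.2 and 50.9 (0.31, SE 0.11, limma unadjusted p = 0.0235). In the deposited values 5 of the 14 (35.7%) did not overlap between the groups, beside 22.4% of all genes. They were these 4 and Dvl3, which was higher (0.11, SE 0.09, limma unadjusted p = 0.236). In whole steps Dvl1, Csnk1e and Dvl3 overlapped. The most abundant of the 14, Csnk1a1, had a log2 difference of -0.12 (SE 0.11).

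The other 2 of the 6 were Gpc6, a glypican that binds Wnt proteins at the cell surface, and Lgr6, an R-spondin receptor. Gpc6 was at 17.6, 15.1 and 20.96 versus 10.7, 14.4 and 11.97 (a log2 difference of -0.49, SE 0.15, limma unadjusted p = 0.0147), and was the 1 of 10 tested genes for Wnt release and co-reception with an unadjusted p under 0.05. Lower values without overlap were found for 4 of these 10 (40%), Ryk, Ptk7, Gpc6 and Adgra2, beside 9.88% of all genes. Ryk, Ptk7 and Adgra2 are named after their values were seen. Ryk was at 87.9, 88.3 and 93.0 versus 78.0, 87.7 and 85.8 (-0.10, SE 0.09, limma unadjusted p = 0.303). Its gap was under 1 step, as were those of Gpc6 and of Adgra2, whose nearest values were 34.2 in wild-type replicate 1 and 33.9 in labelled knockdown replicate 3. In whole steps Ryk overlapped, while Gpc6, Ptk7 and Adgra2 did not. Limma unadjusted p-values were 0.0515 for Ptk7 (-0.42, SE 0.18) and 0.0692 for Adgra2 (-0.21, SE 0.10). Lgr6 was at 0.965, 1.87 and 1.76 versus 4.51, 1.91 and 2.99 (0.68, SE 0.28, limma unadjusted p = 0.0469), 1 of 3 tested R-spondin receptor and ligase genes, with wild-type replicate 2 and labelled knockdown replicate 2 both at 2 steps. Wls, which carries Wnt proteins to the surface, was at 138, 129.6 and 159 in the wild-type group and at 102, 145 and 125 in the labelled knockdown group (-0.21, SE 0.15), and Lgr4 had a log2 difference of -0.01 (SE 0.12). None of the 5 other antagonist genes tested had an unadjusted p under 0.05, Igfbp4 being the most abundant (-0.12, SE 0.21). The same was true of the 12 genes of the beta-catenin transcription complex (Pygo2 at -0.04, SE 0.10) and of the 7 planar polarity genes (Daam1 at 0.12, SE 0.12).

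Known beta-catenin target genes had 0 of 10 tested members past the adjusted threshold or at an unadjusted limma p under 0.05, beside 14.8% of all genes at the latter. Means were lower for 6 and higher for 4 of the 10, beside 49.2% of all genes with a lower mean, with a median log2 difference of -0.09. The most abundant, Ccn5, a matricellular gene, was at 696, 845 and 573 versus 352, 727 and 528 (a log2 difference of -0.44, SE 0.28).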

How the data were processed

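RNA from 6 myocardium samples was sequenced. Kits of 2 kinds appear in the labels' protocols, with no word on which sample had which. The submitters' processing notes name mm10; for the aligner, quantifier and annotation, nothing is given in the sources used here. One table was deposited by the authors, with 16205 rows and named as TPM. The values the authors deposited are treated as a score, not as TPM: columns sum to 901563 to 1159660, and 96.9% to 100% of values above 0.2 and under 3.5 steps lay within 0.15 steps of a whole multiple. The adjustment between libraries is not stated. Labelled knockdown replicate 1 had 1078 values above 0 and under 0.2, and the other libraries none.

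Repeated symbols cost 6 rows (the highest mean stayed), none of a member. For genes with a mean of at least 1, log2(value + 1) was fitted with limma 3.58.1 in R 4.3.3 (intensity trend, no covariate, Benjamini-Hochberg adjustment at 0.05); fold changes on that scale understate changes of low genes. The fit was tested on simulated data. Coordinates are from GENCODE M21 and promoter windows from RefSeq (GRCm38.p6). Every member is accounted for; values in every library were given for members with an unadjusted p under 0.05 or no overlap and for the highest member of each role, and others were added afterwards. The members and lists were chosen with earlier results of these data known. Alternatives covered the pseudocount (0.5 and 2), the filter (none, or a mean of at least 5), scaling, the intensity trend, a replicate block, a heart muscle covariate and leaving out each library.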

Additional observations from a re-analysis of the deposited data

How the results depend on the processing

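No member passed the adjusted threshold in the deposited-value fit or under the pseudocounts, filters, scalings, trend setting, replicate block or covariate tried. Over all genes, 0 passed, and 0 to 13 did when single libraries were left out, with 2 without wild-type replicate 2 and 13 without labelled knockdown replicate 3. Members at an unadjusted limma p under 0.05 numbered 7, with 4 after rescaling to one sum, 3 with the heart muscle covariate and 3 to 8 when single libraries were left out. The shares over all genes were 14.8%, 13.2%, 7.88% and 7.12% to 18.3%. Members without overlap numbered 4, and 5 to 10 when single libraries were left out, where fewer values have to separate. Over all genes the shares were 22.4% and 28.6% to 38.7%. Further alternatives were added after seeing the data: division by the step, and the Fzd2 to Fzd6 ratio without each library, which gave -1.07 to -0.80.

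Same-numbered libraries deviated from their group means together with correlations of 0.0559, 0.0608 and 0.143, not all above the 0.1 set for pairing. Every library labelled knockdown correlated best with its same-numbered wild type, but wild-type replicate 1 correlated best with labelled knockdown replicate 2 (0.0595). Pairing by number was therefore neither established nor excluded. With the replicate block, 7 members had an unadjusted p under 0.05, beside 12.9% of all genes, and 0 passed the adjusted threshold. Limma unadjusted p-values with the block were 0.00159 for Wnt4, 0.00802 for Wnt2 and 0.0422 for Fzd1, lower than without it. They were higher for Fzd2 (0.0151), Fzd6 (0.0243), Wnt11 (0.0261) and Fzd5 (0.0374).

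Direction was kept in 196 of 203 alternative values of the members named by rule, in 254 of 282 of the other members tested and in 207 of 220 of the named pathway genes. Part of these could not have changed. The filters, the trend setting and the replicate block leave each fitted log2 difference as in the main fit, and their values are counted here. Reversed log2 differences, of genes with small or uncertain main values, were as follows. After rescaling to one sum they were -0.036 for Fzd4, -0.075 for Fzd8 and -0.017 for Daam1. With mitochondrial genes left out they were 0.024 for Dkk3, 0.012 for Wnt5b, 0.030 for Lgr4 and 0.0092 for Pygo2, and with quantile normalization 0.011 for Dkk3. With the covariate they were 0.37 for Rspo1, 0.12 for Dkk3, 0.022 for Wnt5b, 0.18 for Tcf7, 0.058 for Dkk2, 0.034 for Ror2, -0.024 for Fzd4, 0.10 for Ror1, -0.049 for Fzd8, 0.11 for Igfbp4 and 0.043 for Pygo2. Divided by the step they were -0.046 for Fzd4, -0.0019 for Wnt10b, -0.085 for Fzd8 and -0.027 for Daam1. Leaving out single libraries gave ranges that cross 0: -0.17 to 0.12 for Dkk3, -0.10 to 0.0044 for Lrp6, -0.098 to 0.087 for Wnt5b, -0.50 to 0.079 for Dkk2, -0.40 to 0.040 for Frzb, -0.026 to 0.22 for Fzd4, -0.43 to 0.13 for Ror1, -0.22 to 0.41 for Axin2, -0.093 to 0.26 for Wnt10b, -0.13 to 0.23 for Fzd8, -0.25 to 0.063 for Igfbp4, -0.12 to 0.0095 for Pygo2 and -0.060 to 0.062 for Lgr4. The causes were not tested. Read depth is unknown, and 3 libraries a group limit every comparison.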
